A study of Mus musculus with 18 samples.

Results

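The genes of synaptic vesicle release were compared between endothelial and other cells of the developing mouse retina. The 39 member genes were listed by name, covering SNARE proteins, synaptotagmins, complexins, Munc18 proteins, active zone scaffolds, vesicle membrane proteins, SNARE disassembly factors, synucleins and vesicle retrieval proteins. All 39 had a probe set with a single gene symbol, out of 15964 genes so measured in the series. Each gene was read from its brightest such probe set, taking chip A where it held the gene, then chip B, then chip C. That placed 31 members on chip A, 4 on chip B and 4 on chip C. No filter on dim probe sets was applied, so every member was tested.

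The GFP-positive cells (GFP-pos) and the GFP-negative cells (GFP-neg) were sorted from retinas of homozygous Tie2-GFP transgenic FVB/N mice at postnatal day 8. Both populations therefore came from animals of the same transgenic line, strain and age and were separated by the sort. The labels do not say which GFP-pos and GFP-neg arrays, if any, came from the same pool of retinas. Retinas were pooled before papain digestion, propidium iodide was added before sorting, and RNA was amplified and hybridised to the 3 Affymetrix MGU74v2 chips with 3 arrays per population and chip. The Tie2 promoter that drives GFP is active in endothelial cells and also in some blood-forming cells. Nothing in the labels ties the 3 arrays of a population to different animals, and p-values here reflect array-to-array spread alone, part or all of which may be technical.

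Neurons release transmitter when a vesicle SNARE (a VAMP) zips together with plasma membrane SNAREs (a syntaxin and a SNAP protein) under the control of a calcium sensor, a synaptotagmin. Complexins and Munc18 proteins regulate the assembly, active zone scaffolds place the vesicles, and dynamin, amphiphysin and phosphoinositide phosphatases retrieve the membrane afterwards. Every cell needs SNARE fusion, and several members have close relatives that serve general secretion. In the retina, photoreceptors and bipolar cells use ribbon synapses, which have their own complexins and syntaxin, and at this age these synapses are still forming.

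The sorted populations were first checked on cell type markers. Tek, which encodes Tie2, read 547, 537 and 240 intensity units on GFP-pos arrays 1 to 3, against 9.48, 8.58 and 6.62 on GFP-neg arrays. Of 10 endothelial markers 9 were higher in GFP-pos cells (Egfl7 did not pass). Lower in GFP-pos cells were 4 of 6 Müller glial, 2 of 4 bipolar, 3 of 5 rod and 1 of 6 amacrine markers. So were 1 of 3 cone, 1 of 4 horizontal and 1 of 4 astrocyte markers, but no pericyte, microglia and leukocyte, erythrocyte or platelet marker. Among the lower ones were Rlbp1 (-4.38), Prkca (-3.77), Sag (-2.37) and Pax6 (-3.82), as log2 differences explained below. The 3 rod calls, Nrl and Sag (both adjusted p = 0.0466 in limma) and Pde6b (0.0199), each ended without certain single arrays. Several other defining neuronal markers were below their chip's median in both populations. Gad1 and Gad2 of amacrine cells read at most 27.6, Gnat1 of rods at most 22.7, and Nefl, Nefm, Thy1 and Pou4f1 of ganglion cells at most 41.5. In the ganglion cell list none of 5 measured genes was lower in GFP-pos cells in limma (0 also at an unadjusted p under 0.05), and the fifth gene, Sncg, which is also a member, was higher (0.70). Array medians lay between 40.7 and 44.6 units on chips A and B and between 32.5 and 34.4 on chip C. GFP-pos array 3 stood apart, with rank correlations of 0.911 to 0.929 to the other GFP-pos arrays, against 0.960 to 0.987 for all other pairs within a population.

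Members were called lower in GFP-pos cells more often than genes at large. The members and gene lists were chosen with earlier results of these data known. Their shares here and below therefore describe the lists and do not test them. Of the 39 members, 13 (33.3%) were lower in GFP-pos than in GFP-neg cells at an adjusted p under 0.05, where 11.3% of all genes were lower. Only Stx2 and Sncg were higher, or 5.13% of members against 9.43% of all genes. The 13 lower members differed by -2.94 to -0.46 on the log2 of intensity plus 16 (GFP-pos minus GFP-neg, as for all differences below), a scale that understates dim probe sets. The remaining 24 did not pass, and 20 of them lay within 0.3 of 0. Means below 100 units in both populations were found for 20 of the 24, and for 5 of the 13 lower members. Whether such probe sets read above background was not tested. The median difference of the members was -0.08, beside a median of 0.04 over all genes, so a minority of clearly lower members stood beside a majority near 0. In sorted bulk RNA, fewer cells of a type and less RNA per cell cannot be told apart.

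**Figure D1:**
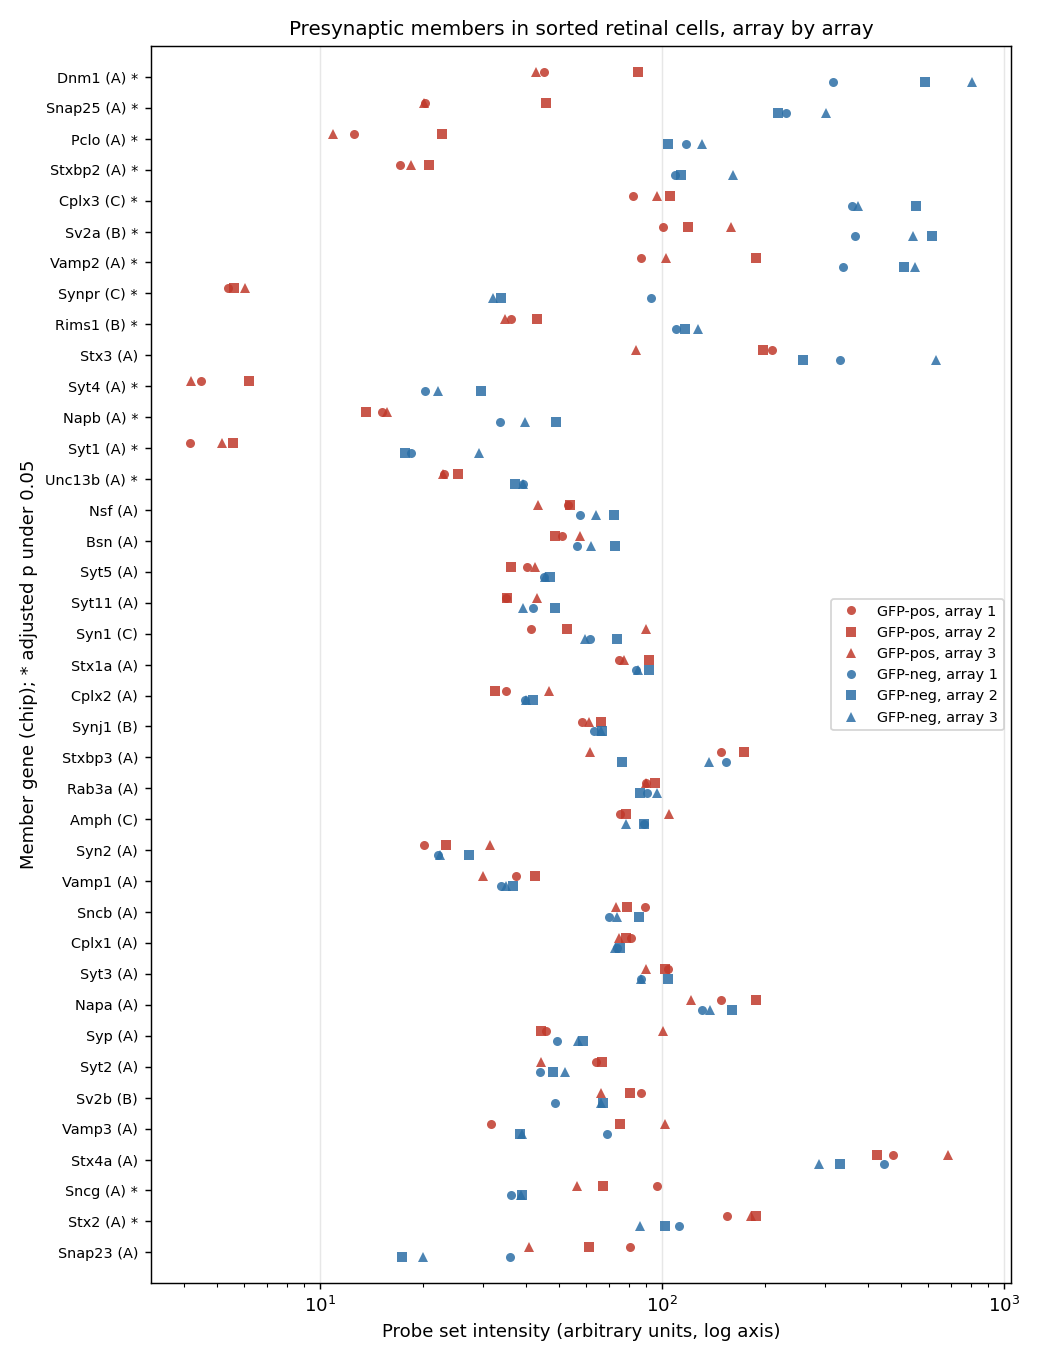
Probe set intensity (log axis) of the 39 members on every array, with GFP-pos above GFP-neg in each row and rows ordered by the log2 difference. The 13 lower members, from Dnm1 at -2.94 to Unc13b at -0.46, have separate clouds, and Stx2, Sncg and Snap23 sit at the other end.

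The promoters of Dnm1, Pclo and Sv2a, which fell, are shown beside that of Stx2, which rose, so that their letters can be compared. Dnm1 had the largest fall among the chosen probe sets. Syn1, which did not pass, is shown because it held both of the rarer motifs searched, and was chosen after its matches were seen. Windows run from 250 bases before to 50 bases after the start, from RefSeq on GRCm38.p6. Dnm1 lies at chr2:32353280-32353579 on the minus strand, Pclo at chr5:14514668-14514967 on the plus strand, Sv2a at chr3:96180977-96181276 on the plus strand, Stx2 (the first of its 2 windows) at chr5:129008523-129008822 on the minus strand and Syn1 at chrX:20920869-20921168 on the minus strand. Capitals mark matches on either strand to GGGCGG (the GC box bound by Sp1), TGACGTCA (the cyclic AMP response element) and TTCAGCACC (the left part of the site of the neuronal gene repressor REST), which do not overlap in these windows.
Dnm1: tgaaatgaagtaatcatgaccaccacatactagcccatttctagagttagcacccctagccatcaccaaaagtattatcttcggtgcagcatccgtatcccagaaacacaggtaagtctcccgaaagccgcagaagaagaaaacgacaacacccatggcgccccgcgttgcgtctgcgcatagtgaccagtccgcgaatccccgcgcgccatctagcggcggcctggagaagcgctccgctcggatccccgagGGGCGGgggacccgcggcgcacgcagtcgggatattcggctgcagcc
Pclo: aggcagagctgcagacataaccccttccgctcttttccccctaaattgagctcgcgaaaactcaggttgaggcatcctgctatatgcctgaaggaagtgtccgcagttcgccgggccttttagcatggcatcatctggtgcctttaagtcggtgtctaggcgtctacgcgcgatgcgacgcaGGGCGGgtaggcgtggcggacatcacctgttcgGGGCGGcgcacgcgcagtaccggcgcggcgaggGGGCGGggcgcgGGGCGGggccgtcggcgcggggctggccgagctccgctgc
Sv2a: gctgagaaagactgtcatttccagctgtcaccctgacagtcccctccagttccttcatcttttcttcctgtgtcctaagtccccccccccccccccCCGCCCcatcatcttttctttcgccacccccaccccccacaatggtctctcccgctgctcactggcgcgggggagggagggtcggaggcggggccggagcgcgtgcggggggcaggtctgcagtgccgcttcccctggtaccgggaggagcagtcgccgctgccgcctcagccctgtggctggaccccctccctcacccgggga
Stx2: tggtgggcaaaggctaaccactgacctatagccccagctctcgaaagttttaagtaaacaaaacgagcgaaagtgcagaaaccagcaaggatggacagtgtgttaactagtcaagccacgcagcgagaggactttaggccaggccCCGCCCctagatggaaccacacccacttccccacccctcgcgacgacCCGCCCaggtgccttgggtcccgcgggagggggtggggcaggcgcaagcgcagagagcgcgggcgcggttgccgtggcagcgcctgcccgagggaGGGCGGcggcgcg
Syn1: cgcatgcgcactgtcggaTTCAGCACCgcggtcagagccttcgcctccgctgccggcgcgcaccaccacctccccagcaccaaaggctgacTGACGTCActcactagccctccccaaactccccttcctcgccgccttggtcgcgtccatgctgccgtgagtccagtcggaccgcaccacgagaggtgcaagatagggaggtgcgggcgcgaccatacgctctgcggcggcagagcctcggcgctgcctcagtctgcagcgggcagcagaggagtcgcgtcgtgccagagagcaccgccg

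RefSeq windows matched 34 of the 39 members, with 44 windows in all. GGGCGG stood in 24 of the 44 (54.5%), against 35.7% of 32851 windows of the same length, and the median GC content was 62% for member windows and 52.7% for all. Both falling and rising members held it, with 1 copy in Dnm1, 4 in Pclo, 1 in Sv2a and 3 in the Stx2 window. TGACGTCA was found at Napa, Stxbp3 and Syn1, or 6.82% of member windows against 1.79% of all. TTCAGCACC occurred at Syn1 alone, against 0.371% of all windows. A match is only a match of letters.

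Of the 4 neuronal SNARE proteins 2 fell, Snap25 and Vamp2. Snap25, the plasma membrane SNARE of neurons, read 20.3, 45.7 and 20.1 units on GFP-pos arrays, against 231, 219 and 302 on GFP-neg arrays. That is a mean of 28.7 ± 14.7 against 251 ± 45.1 (SD, n = 3 each) and a log2 difference of -2.61 (SE 0.24, adjusted p = 0.00119). Vamp2, synaptobrevin, gave 87.1, 188 and 103 units in GFP-pos cells, against 339, 512 and 552 units in GFP-neg cells. Its difference was -1.80 (SE 0.31, adjusted p = 0.0112), and the call ended without GFP-neg array 2 (adjusted p = 0.0508) or 3 (adjusted p = 0.0526). For both chosen probe sets the populations did not overlap and GFP-pos array 2 was the highest of its group. A further probe set of each gene overlapped between populations and did not pass, at -0.25 for Snap25 on chip B (adjusted p = 0.513) and -0.12 for Vamp2 on chip A (adjusted p = 0.667). The Snap25 one passed without GFP-pos array 3 (-0.55, adjusted p = 0.0182).

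Stx1a, the syntaxin of conventional synapses, averaged 81.4 ± 9.08 units in GFP-pos cells and 87.0 ± 4.09 in GFP-neg cells (-0.08, SE 0.09). Vamp1, a synaptobrevin of spinal and brainstem neurons, was dim in both, at 36.7 ± 6.43 against 35.3 ± 1.43. Neither passed.

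Of the 5 broadly expressed SNARE relatives 1 was higher in GFP-pos cells and none was lower (1 at an unadjusted p under 0.05 in limma). Stx2, a syntaxin of many secretory cells, was 155, 188 and 182 units in GFP-pos cells, against 112, 102 and 86.2 in GFP-neg cells, a difference of 0.72 (SE 0.12, adjusted p = 0.00913). Snap23, the counterpart of SNAP-25 outside neurons, gave 80.9, 61.4 and 41.0 against 36.0, 17.4 and 20.0, with no overlap, and just missed the threshold at 0.92 (SE 0.25, adjusted p = 0.0537). It passed without GFP-pos array 3 at 1.13 (adjusted p = 0.0172). Snap25 and Snap23 thus had differences of opposite sign, -2.61 and 0.92. The difference between these 2 genes was not tested.

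Vamp3, cellubrevin, which drives fusion of recycling endosomes, was 31.7, 75.6 and 102 units in GFP-pos cells, against 69.3, 38.4 and 39.1 units in GFP-neg cells, and did not pass (0.34, SE 0.37). Another Vamp3 probe set on chip B did pass, at 36.2, 37.1 and 39.6 against 14.0, 20.5 and 19.9 (0.66, adjusted p = 0.00628). Its means were below the chip's median in both populations, and a second chip B probe set did not pass (0.12, adjusted p = 0.471). Stx4a, the plasma membrane syntaxin of general exocytosis, was the brightest of this group that did not pass, at 474, 427 and 686 units against 447, 333 and 289 (0.54, adjusted p = 0.175).

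Stx3 gave different answers by probe set. Syntaxin 3 serves epithelial secretion, and a splice form of it works at retinal ribbon synapses. On chip A it was 210, 198 and 84.1 units in GFP-pos cells, against 332, 258 and 635 in GFP-neg cells, and did not pass (-1.23, SE 0.44). On chip B a probe set read 28.8, 52.8 and 42.8 against 206, 335 and 356, a difference of -2.44 (adjusted p = 0.000776). The other chip B probe set lay in the opposite direction at 482, 379 and 304 against 182, 253 and 286 (0.66, adjusted p = 0.0772), and it passed without GFP-pos array 3 (0.81, adjusted p = 0.0233). The further Stx3 probe sets on chips A and C were below their chip's median in both populations and did not pass (0.13, 0.00 and -0.20). Which transcript each probe set reads was not determined here.

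**Figure D2:**
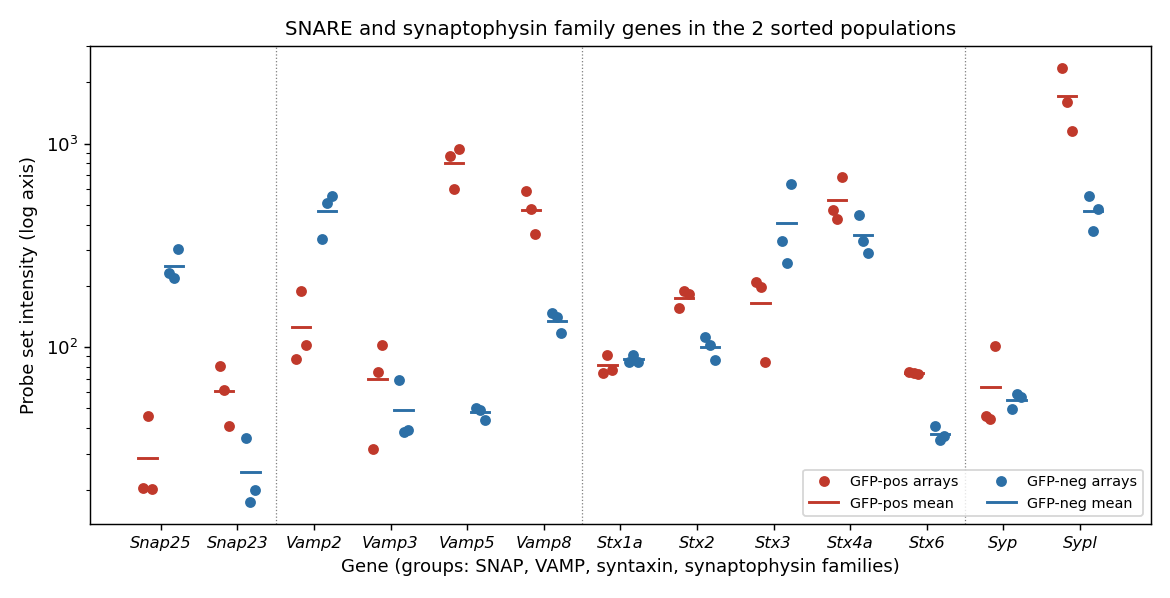
Intensity (log axis) of SNARE and synaptophysin family genes, with GFP-pos arrays left of GFP-neg arrays and lines at the means of 3 arrays. Snap25 and Vamp2 are higher in GFP-neg, whereas Vamp5, Vamp8, Stx2, Stx6 and Sypl are higher in GFP-pos. Heights of different genes come from different probes and cannot be set against each other. The genes shown are a selection. Of those not shown, Snap47 was lower in GFP-pos (-0.68, adjusted p = 0.00481 in limma), and Stx7, Snap29, Vamp4 and Vamp7 were among those that did not pass.

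Of the calcium sensors, Syt1 and Syt4 fell and the other 4 did not pass by the chosen probe sets. Both chosen probe sets were below their chip's median in both populations. Syt1, the fast sensor of most forebrain and retinal synapses, was 4.16, 5.56 and 5.17 units in GFP-pos cells, against 18.5, 17.7 and 29.2 in GFP-neg cells (-0.84, adjusted p = 0.00751). Another Syt1 probe set on chip B read 22.9, 122 and 37.4 against 657, 980 and 1135. Its mean was 60.7 ± 53.5 against 924 ± 244, a difference of -3.80 (SE 0.47, adjusted p = 0.00203), and GFP-pos array 2 was again the highest of its group. A second chip B probe set of Syt1 just missed the threshold (-0.44, adjusted p = 0.0515).

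Syt4, a synaptotagmin of dense-core vesicles, was 4.50, 6.20 and 4.19 units in GFP-pos cells, against 20.3, 29.6 and 22.2 in GFP-neg cells (-0.93, adjusted p = 0.00253). On chip C it was 52.1, 55.2 and 33.8 against 438, 418 and 338 (-2.73, adjusted p = 0.000446). Both probe sets of Syt4 fell without overlap.

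Syt11, a synaptotagmin that does not bind calcium, gave different calls by probe set. The chip A probe set was flat at 37.8 ± 4.53 in GFP-pos against 43.3 ± 4.85 in GFP-neg cells (-0.14). On chip C it read 41.7, 35.8 and 23.4 against 710, 707 and 471, an 18.7-fold higher mean in GFP-neg cells (-3.69, adjusted p = 0.000325). The chip B probe set and a second on chip C also fell (-1.72 and -1.89), and another on chip C did not pass (0.06). Syt2, a fast sensor of brainstem and some retinal terminals, did not pass at 58.5 ± 12.4 against 48.0 ± 3.98, but passed without GFP-pos array 3 (0.35, adjusted p = 0.0274). Syt3 was 104, 102 and 90.0 against 87.1, 104 and 87.0, and it did not pass, nor did Syt5 at 39.8 ± 3.25 against 45.9 ± 1.02.

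Of the complexins, which clamp and trigger the assembled SNAREs, only Cplx3 passed. Cplx3, the complexin of retinal ribbon synapses and some amacrine cells, was 82.4, 106 and 97.1 units in GFP-pos cells, against 359, 555 and 374 in GFP-neg cells (-1.98, SE 0.18, adjusted p = 0.00201). Cplx1, a complexin of conventional synapses, was 81.0, 78.6 and 74.7 against 73.7, 75.5 and 73.0 and did not pass (0.06, SE 0.06). Cplx2 lay at 38.2 ± 7.66 against 40.6 ± 1.22. Their chip B probe sets did not pass either, at -0.20 for Cplx1 and at -0.14 and 0.11 for Cplx2. The complexin of ribbon synapses was thus called and those of conventional synapses were not, but the difference between them was not tested. Whether the Cplx1 and Cplx2 probe sets read above background was not tested either.

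The Munc18 proteins, which hold syntaxins ready, were represented by members best known outside neurons. Stxbp2, which serves secretion in epithelial and blood cells, nevertheless fell, with 17.1, 20.8 and 18.5 units in GFP-pos cells, against 109, 114 and 161 in GFP-neg cells (-2.03, SE 0.15, adjusted p = 0.00051). Both other Stxbp2 probe sets were at or below 33.5 units on every array and did not pass (-0.05 and -0.07). Stxbp3, the partner of syntaxin 4, was 149, 174 and 61.5 against 154, 76.7 and 137 (0.00, SE 0.40), with array 3 the low one in GFP-pos and array 2 in GFP-neg cells.

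Of the 5 active zone members 3 fell. Pclo, the giant scaffold piccolo, was 12.6, 22.7 and 10.9 units in GFP-pos cells, against 118, 104 and 131 in GFP-neg cells (-2.10, SE 0.16, adjusted p = 0.000623). Both chip C probe sets of Pclo fell as well (-1.11 and -0.61), the second of them a call that ended without GFP-pos array 1 or 2 or GFP-neg array 1 or 2. Rims1, a scaffold that binds Rab3 and calcium channels, was 36.2, 43.2 and 34.8 against 110, 117 and 128 (-1.32, SE 0.10, adjusted p = 0.000296). All arrays of the populations were separate for these genes.

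Unc13b, a Munc13 priming factor, was dim but tight at 23.8 ± 1.37 units in GFP-pos against 38.6 ± 1.25 in GFP-neg cells (-0.46, adjusted p = 0.00584). Bsn, the scaffold bassoon, did not pass on chip A at 52.5 ± 4.71 against 63.9 ± 8.47. On chip C a Bsn probe set of the type that can match related transcripts was 689, 690 and 774 against 1333, 1882 and 1774 (-1.18, adjusted p = 0.00551). The other chip B and C probe sets of Bsn did not pass (0.41 and 0.12), though the chip B one passed without GFP-pos array 3 (0.54, adjusted p = 0.0121). Rab3a, the vesicle GTPase, did not pass at 90.1, 95.3 and 89.9 units against 90.4, 86.5 and 96.7, nor did its 3 further probe sets.

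Vesicle membrane proteins divided by gene. Sv2a, a transporter-like glycoprotein of nearly all synaptic vesicles, was 101, 119 and 159 units in GFP-pos cells, against 367, 618 and 543 in GFP-neg cells (-1.87, SE 0.23, adjusted p = 0.00192). Synpr, synaptoporin, was 5.39, 5.62 and 6.02 against 93.0, 33.9 and 32.1 (-1.56, SE 0.32, adjusted p = 0.0348). The 3 GFP-neg readings of Synpr were uneven, with array 1 the high one, and the call ended without GFP-pos array 1 or 2 or GFP-neg array 2 or 3 (adjusted p = 0.0608 to 0.111). The other Synpr probe set read at most 3.12 units and did not pass (-0.09).

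Sv2b, the related glycoprotein of photoreceptor and other terminals, did not pass on chip B at 87.1, 80.5 and 66.6 units in GFP-pos cells, against 48.6, 67.3 and 66.4 units in GFP-neg cells (0.30). On chip C it was 49.6, 59.3 and 43.8 against 524, 572 and 577, a difference of -3.11 (SE 0.10, adjusted p = 8.99e-05). A second chip C probe set also fell (-1.29, adjusted p = 0.0342), a call that ended without GFP-pos array 2 or any single GFP-neg array. On both chip C probe sets the populations did not overlap.

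The synapsins and synaptophysin, classic markers of nerve terminals, did not pass. Syn1 was 41.3, 52.7 and 89.8 units in GFP-pos cells, against 61.7, 73.7 and 59.8 in GFP-neg cells. Syn2 averaged 25.0 ± 5.78 against 24.0 ± 2.86, and its 3 further probe sets did not pass. Syp averaged 63.7 ± 32.4 against 55.1 ± 4.91, with GFP-pos array 3 far above the other GFP-pos arrays at 101 units against 44.3 and 45.7.

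Of the factors that take SNARE complexes apart after fusion, only Napb, the brain form of alpha-SNAP, fell by the chosen probe set. It was 15.2, 13.6 and 15.7 units in GFP-pos cells, against 33.6, 48.9 and 39.8 in GFP-neg cells (-0.87, adjusted p = 0.00379), but its other probe sets did not pass (-0.12 and 0.11). Napa, the general alpha-SNAP, was 149, 189 and 122 units against 131, 160 and 138 and did not pass. A chip C probe set of Napa fell (-0.60, adjusted p = 0.0342), a call that ended without any single array other than GFP-pos array 3. Nsf, the ATPase of all SNARE recycling, did not pass on chip A (-0.29) but was 173, 167 and 161 units against 334, 350 and 367 on chip B, a 2.10-fold higher mean in GFP-neg cells (SE 0.08 on the log2 scale, adjusted p = 0.00039).

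The synucleins are small proteins that bind vesicle membranes. Sncg, gamma-synuclein, known from retinal ganglion cells and sensory neurons, was higher in GFP-pos cells at 96.8, 67.2 and 56.4 units, against 36.3, 38.9 and 38.7 units in GFP-neg cells (0.70, SE 0.17, adjusted p = 0.0357). The populations did not overlap, but the call ended without GFP-pos array 2 or any 1 of the GFP-neg arrays (adjusted p = 0.0812 to 0.123). This Sncg probe set is of the type that can match related transcripts. The other, a plain one, was below its chip's median in both populations, at 26.4 ± 7.10 against 14.8 ± 1.28 (0.45, adjusted p = 0.0633). It passed without GFP-pos array 3 (0.52, adjusted p = 0.0371). Sncb, beta-synuclein, was 89.0, 79.1 and 73.4 against 69.9, 85.8 and 74.0 and did not pass.

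Dnm1, the dynamin that pinches off vesicles at nerve terminals, had the largest fall among the chosen probe sets. It was 45.3, 85.2 and 42.9 units in GFP-pos cells, against 317, 589 and 809 units in GFP-neg cells, a 9.89-fold higher mean in GFP-neg cells (-2.94, SE 0.38, adjusted p = 0.00394). The other chip A probe set of Dnm1 also fell (-1.76, adjusted p = 0.00625), and the chip C one did not pass (0.09). Amph, amphiphysin, which recruits dynamin, was 75.6, 78.5 and 105 units against 88.4, 88.7 and 78.3 (0.01). Synj1, the synaptojanin phosphatase that uncoats vesicles, was 62.0 ± 3.88 against 65.5 ± 1.79, and none of its 3 probe sets passed.

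Each gene was next set across all of its probe sets. The 39 members had 88 probe sets with a single symbol, and 25 genes had more than 1. Of the 49 further probe sets 14 were lower (28.6%, against 8.68% of all further probe sets of genes) and 1 was higher (2.04%, against 6.49%). Stx3, Syt11, Bsn, Sv2b, Nsf and Napa fell only by a further probe set, which brought the genes with any falling probe set to 19. No gene had probe sets called in both directions, and 17 had none called.

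**Figure D3:**
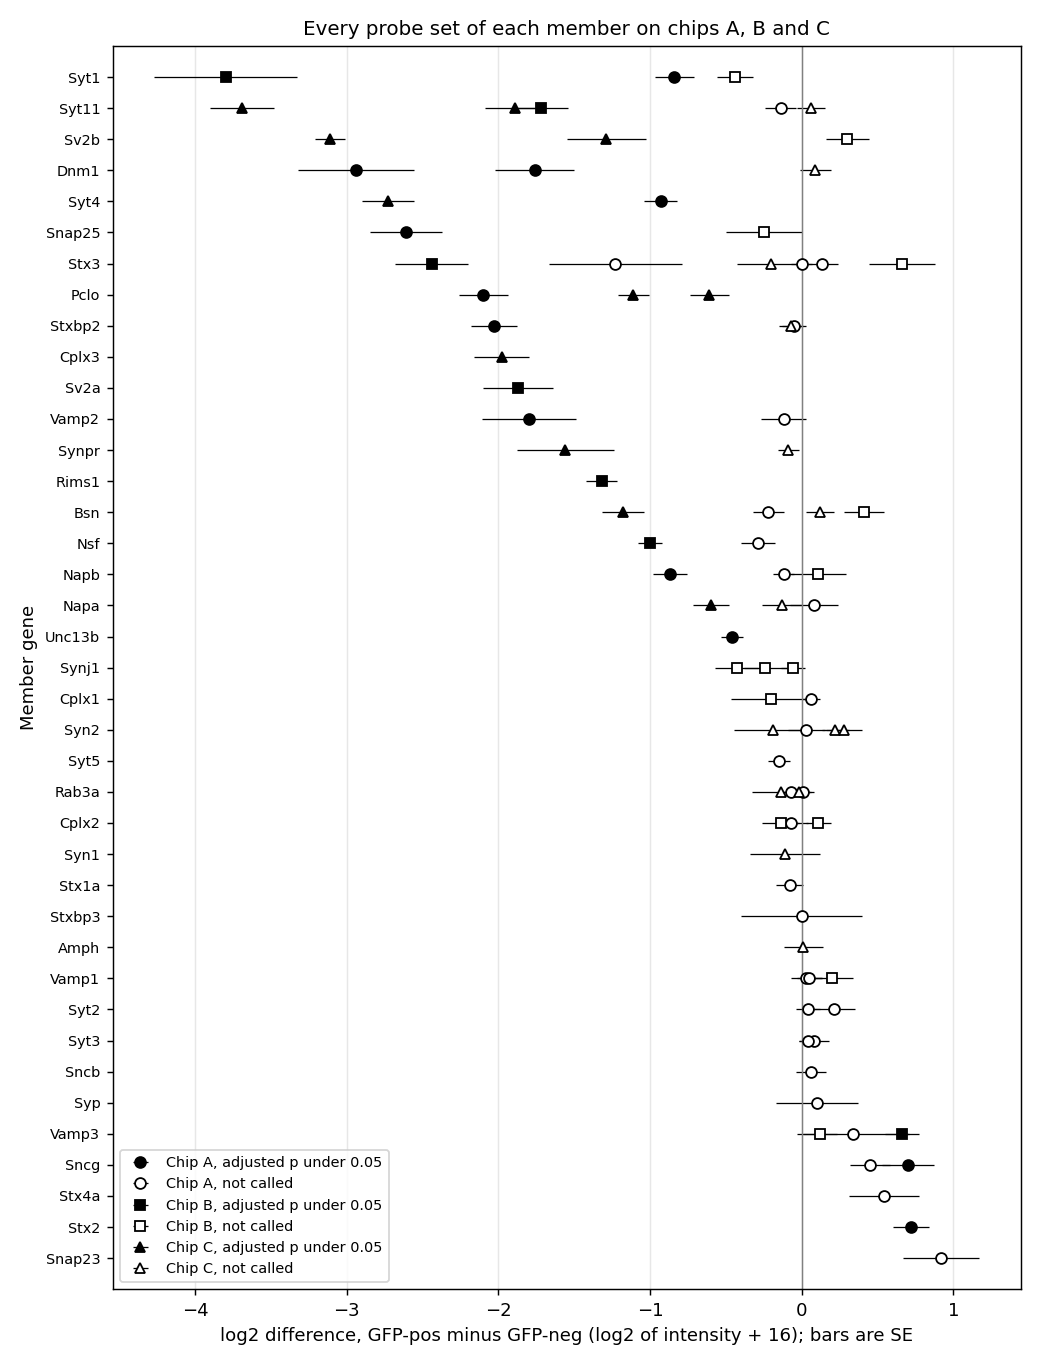
Log2 difference with SE for all 88 probe sets of the members, by chip, filled where the adjusted p was under 0.05. Syt11, Sv2b and Dnm1 have lowest values of -3.69, -3.11 and -2.94 and highest values above 0, and filled symbols right of 0 belong to Stx2, Sncg and Vamp3.

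The list of other genes of vesicle release and retrieval had 103 measured genes, of which 18 (17.5%) were lower and 11 (10.7%) higher in GFP-pos cells, against 11.3% and 9.43% of all genes, with a median of 0.02. The share of higher genes was near that of all genes. Of the 24 active zone and priming genes 10 fell (41.7%). The share that fell was 28.6% for other SNARE regulators and 17.6% for vesicle retrieval. It was 6.25% for synaptotagmins and C2 sensors, 5.88% for syntaxins and SNAPs, 5.56% for vesicle membrane and transmitter loading, and 0% for VAMPs. Lin7a, an adaptor of the neurexin complex, was 5.07, 19.9 and 6.47 units in GFP-pos cells, against 246, 342 and 345 in GFP-neg cells (-3.65, adjusted p = 0.000138). Nrxn3, a neurexin adhesion receptor, differed by -3.44 and Cadps, a priming factor of dense-core vesicles, by -3.13. Ppfia2, a liprin scaffold, differed by -2.39, Syt14 by -2.34 and the clathrin adaptor Snap91 by -2.33.

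The 6 genes with the largest rise were as follows. Vamp5, a VAMP of muscle and other non-neuronal membranes, was 867, 600 and 938 units in GFP-pos cells, against 50.3, 49.1 and 44.1 units in GFP-neg cells, a 16.8-fold higher mean (3.65, SE 0.17, adjusted p = 0.000107). Sypl, the synaptophysin relative of non-neuronal vesicles, was 2359, 1607 and 1153 against 553, 372 and 475 (1.79, adjusted p = 0.0085). Vamp8, the VAMP of endosomes and secretory granules, was 587, 476 and 359 against 147, 141 and 117 (1.68, adjusted p = 0.00233). Itsn2 rose by 1.08, Stxbp5, which encodes tomosyn, by 0.89, and Stx6, a syntaxin of the trans-Golgi network, by 0.76. Of 4 other VAMPs 2 rose and none fell (0 also at an unadjusted p under 0.05).

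The brightest of these genes that did not pass were Cltc, clathrin heavy chain (-0.12), Scamp1, a carrier membrane protein (0.48, adjusted p = 0.0948), and Bin1, the broadly expressed relative of amphiphysin (-0.23). Scamp1 passed without GFP-pos array 3 (0.65, adjusted p = 0.00404).

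**Figure D4:**
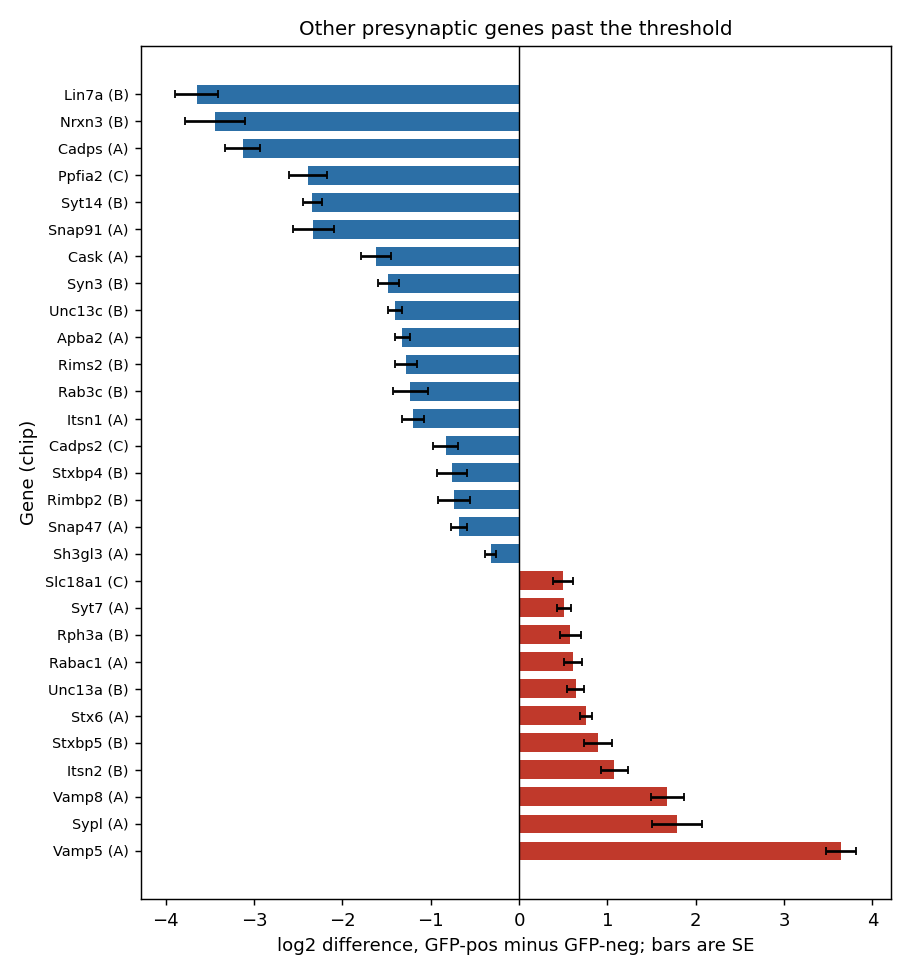
Log2 difference, GFP-pos minus GFP-neg, with SE for the 29 other presynaptic genes past the threshold, chip in brackets. Lin7a, Nrxn3 and Cadps lie at -3.65, -3.44 and -3.13, and Vamp5 at 3.65.

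The genes that fell were not equally high on the 3 GFP-pos arrays. GFP-pos array 2 was the highest of its population at 10 of the 13 lower members (76.9%), at 8 of the 14 further probe sets that fell and at 11 of the 18 other presynaptic genes that fell. The same array was the highest at 41.3% of all genes that were lower in GFP-pos cells and at 30.5% of all genes. The rod gene Sag was also highest on it, at 65.2, 271 and 72.5 units on GFP-pos arrays 1 to 3, against 883, 334 and 894 units on GFP-neg arrays. The summed level of the 5 rod markers was 171 to 389 in GFP-pos against 492 to 1167 in GFP-neg cells, and Sag supplied 271 of the 389 on GFP-pos array 2. Of the other rod markers Pde6b was also highest there, at 20.4, 34.3 and 25.8 units on GFP-pos arrays, whereas Nrl was 22.8, 22.0 and 20.9 and Gnat1 20.1, 18.8 and 22.7. Rcvrn was 42.1, 43.0 and 43.0. Other neuronal marker sums on chip A were not highest on GFP-pos array 2. On GFP-pos arrays 1 to 3 they were 283, 377 and 3807 for bipolar cells, where Pcp2 supplied 3689 of the last. They were 196, 215 and 351 for amacrine markers, where Calb2 supplied 191 of the last, and 118, 112 and 149 for horizontal markers. They were 165, 137 and 145 for ganglion, and 93.6, 96.3 and 102 for cone markers. Single markers that were lower differed in this. Bipolar Prkca (34.4, 60.7 and 26.3), amacrine Pax6 (6.99, 10.8 and 6.76) and cone Gnat2 (18.9, 20.6 and 18.1) were highest on GFP-pos array 2. Bipolar Isl1 (19.0, 21.2 and 24.9) and horizontal Prox1 (43.0, 35.0 and 34.0) were not. The part of rod or other neuronal RNA in the members' levels was not tested. Without GFP-pos array 2, 12 members were lower, Synpr being lost, and Snap25, Vamp2, Pclo and Dnm1 differed by -2.87, -2.10, -2.26 and -3.19.

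GFP-pos array 3 differed in another way. Among other members, it gave the lowest GFP-pos reading at Snap23, Syt2, Stx3 and Stxbp3 and the highest at Syp, Syn1, Amph, Stx4a and Vamp3. It was the highest GFP-pos array at 37.8% of all genes. On it the summed level of the 6 microglia and leukocyte markers was 1182, against 218 and 226 on the other GFP-pos arrays and 280 to 309 in GFP-neg cells, and Csf1r made up 930 of it. None of the 6 passed in limma (0 also at an unadjusted p under 0.05 in either direction). The same array read 3689 for the bipolar gene Pcp2, against 172 and 240 on the other GFP-pos arrays and 783 to 1288 in GFP-neg cells, and 986 for the glial gene Glul, against 136 and 156 on the other GFP-pos arrays and 117 to 142 in GFP-neg cells. The part of RNA from any of these cells in the members' levels was not tested. Without this array 13 members were lower and 4 higher, with Snap23 and Syt2 added to Stx2 and Sncg.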

How the data were processed

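Sorted GFP-pos and GFP-neg retinal cells were measured on 1-colour Affymetrix arrays, with 3 arrays per population on each of 3 chips. Each deposited table gives an intensity on a linear scale for every probe set, judged from the values. The authors' probe summary, background correction and array scaling, which could change every difference, are not given in the sources used here. Detection calls were not used here, so a dim probe set may read background. The number of arrays limits the precision.

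Gene symbols came from the annotation table of each chip. A single symbol was held by 10833, 10581 and 7717 probe sets of chips A, B and C, several by 396, 178 and 150, and none by 1193, 1652 and 4001. Each chip was fitted alone on log2 of intensity plus 16 by the moderated two-sided test of limma 3.58.1 under R 4.3.3. P-values were adjusted by Benjamini-Hochberg across every probe set of the chip, with a threshold of 0.05. P-values in the text come from this fit unless an alternative is named beside them, and the fit was tested on simulated data. The members and gene lists were chosen with earlier results of these data known. The text names all members. Array by array it gives, in each role, up to 2 called members with the largest difference, the brightest that did not pass, and any that rose, plus further probe sets. Of the other presynaptic genes it names up to 6 called per direction and the 3 brightest that did not pass. Alternatives were quantile normalization, median centring, pseudocounts of 1 and 64, a minimum mean of 50, trended robust eBayes, the replicate block, stricter thresholds, other probe sets and each array left out. Figures were drawn with matplotlib 3.10.9.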

Additional observations from a re-analysis of the deposited data

How the results depend on the processing

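The count of lower members was 13 and stayed between 11 and 13 when single arrays were left out. It was 13 with quantile normalization, median centring, a pseudocount of 1 and trended robust eBayes, 12 with a pseudocount of 64 and 11 at an adjusted p under 0.01. With probe sets of a mean of at least 50 it was 8 of 28 members tested. The background rose too under that filter, to 877 of 5870 probe sets lower on chip A and 1078 of 5835 on chip B. Without the filter it was 1149 of 12422 and 1405 of 12411. The second brightest probe set gave 7 lower and 1 higher of 25 genes that had one. Fewer members were tested with the filter and with the second brightest probe set. The brightest probe set on any chip, a choice added after the data were seen, gave 16 lower and 2 higher of 39. By that choice Napb changed sign and no longer passed (0.11, adjusted p = 0.68 in limma). Shares over all genes by the second brightest and by the brightest probe set on any chip are not given here.

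The 2 higher members were 1 with a pseudocount of 64, at an adjusted p under 0.01 and with plain probe sets only, 0 with a minimum of 2-fold in limma (also 0 at an unadjusted p under 0.05), and 1 to 4 without single arrays (1 without GFP-pos array 2 or any GFP-neg array, 4 without GFP-pos array 3). Of the other presynaptic genes, 4 of the 11 higher remained at 2-fold or more. The 1 higher further probe set was 2 with a pseudocount of 1, 3 with trended robust eBayes, 1 to 5 without single arrays (5 without GFP-pos array 3), and 0 with a mean of at least 50 (1 at an unadjusted p under 0.05) or at least 2-fold (0 unadjusted).

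Deviations from the population means correlated between same-numbered arrays at 0.175 to 0.292 for number 1 but at -0.368 to -0.135 for numbers 2 and 3. Arrays of unlike number gave -0.406 to 0.445. With deviations from means of only 3 arrays, these values cannot tell whether same-numbered arrays were paired. With the replicate block 12 members were lower and 2 higher, and chip C had 454 lower and 187 higher probe sets, against 698 and 403 without it. Under it Synpr (adjusted p = 0.0785) and Sncg (0.0745) were lost and Snap23 (0.0253) passed. Snap23 also passed with a pseudocount of 1 (1.30, adjusted p = 0.0403) and with trended robust eBayes (adjusted p = 0.0317), and at a pseudocount of 64 Synpr (-0.71, adjusted p = 0.107) and Sncg (0.42, adjusted p = 0.0615) were lost. On the chosen probe sets no member that passed changed direction in any of these fits. Of 496 alternative values of single members 477 stayed on the same side of the threshold, 5 gained a call and 14 lost it. Some members near 0 that never passed, such as Vamp1, Syp, Syn1 and Napa, changed sign without single arrays. Depth has no counterpart here; the number of arrays and dim signal limit what could be called.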
